A study of Rattus norvegicus with 6 samples.

Results

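The antigen presentation genes described here are 5 rat genes taken by Ensembl ID: Cd74 (ENSRNOG00000018735), RT1-Da (ENSRNOG00000032844), RT1-Ba (ENSRNOG00000000451), RT1-Bb (ENSRNOG00000032708) and B2m (ENSRNOG00000017123). All 5 were found among the 22526 genes of the expression table, and all 5 passed the filter on low values. They were measured by mRNA sequencing of spinal cord from 6 adult female Sprague-Dawley rats weighing 220 to 250 g, 2 weeks after spinal cord injury, with 1 library per rat. Each of 3 rats had received a scaffold of decellularized optic nerve, which is optic nerve tissue stripped of its cells (DON). The other 3 had received such a scaffold carrying Apt19S, an aptamer, that is, a short folded nucleic acid that binds a target (A-DON). Injury and a decellularized scaffold were thus common to both groups, and the groups differ by the aptamer. No uninjured cord and no cord without a scaffold was analysed here. The question put to these genes was how their transcript levels in the implanted cord differed between the scaffolds.

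MHC class II molecules are pairs of an alpha and a beta chain that carry peptides taken up from outside the cell to the surface, where CD4+ T cells read them. In the rat the MHC is called RT1. RT1-Da encodes the alpha chain of the D molecule, and RT1-Ba and RT1-Bb encode the alpha and beta chains of the B molecule. Cd74 encodes the invariant chain, which holds new class II molecules together and blocks their peptide groove until they reach the endosome. B2m encodes beta-2-microglobulin, the small subunit of MHC class I molecules, which show peptides from inside the cell to CD8+ T cells. Class I genes are active in most nucleated cells. Class II genes and Cd74 are mainly active in professional antigen-presenting cells, and in injured cord they are known from microglia, macrophages and other infiltrating leukocytes. Transcription of class II genes and Cd74 depends on the coactivator CIITA, which docks on factors bound to an X box and a Y box in their promoters. Interferon gamma induces CIITA, and it also raises B2m.

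The promoter windows of the 5 genes were read from RefSeq, build GRCr8, which is not the build of the expression values. A window runs from 250 bases before a transcript start to 50 after it. All 5 symbols matched. RT1-Ba and RT1-Bb are immediate neighbours on chromosome 20 in the RefSeq gene table, and RT1-Da lies 3 genes away from RT1-Ba (RT1-Db2, Arrb2-ps and RT1-Db1 between them). The stretches around the boxes are shown because Cd74 and the 3 RT1 genes had the same order of the libraries within each group. B2m shared their order in A-DON, which was present in 14.1% of tested genes, and their order in DON was present in 16.4%. A link between the boxes and these orders was not tested. Capitals mark letters that match a motif searched.
RT1-Da: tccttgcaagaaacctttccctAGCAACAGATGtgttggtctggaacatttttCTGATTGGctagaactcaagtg
RT1-Ba: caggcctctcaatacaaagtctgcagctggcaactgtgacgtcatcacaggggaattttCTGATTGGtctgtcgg
RT1-Bb: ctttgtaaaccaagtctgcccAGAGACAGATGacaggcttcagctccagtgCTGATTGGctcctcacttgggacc
Cd74: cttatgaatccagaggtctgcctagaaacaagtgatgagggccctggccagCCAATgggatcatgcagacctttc
B2m: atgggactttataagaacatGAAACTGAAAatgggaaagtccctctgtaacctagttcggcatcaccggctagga
B2m: agatctgagttcggATTGGctgctagatcg
In GRCr8 they lie at chr20:4515310-4515384 (plus strand, RT1-Da), chr20:4576952-4577026 (plus strand, RT1-Ba), chr20:4604159-4604233 (minus strand, RT1-Bb), chr18:56526966-56527040 (plus strand, Cd74) and, for B2m on the plus strand, chr3:129549160-129549234 and chr3:129549252-129549281.

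Motifs were searched on both strands, with N for any base. The Y box core CCAAT, or its reverse complement ATTGG, was present in all 5 windows and in 37.5% of all 33469 rat windows. It was also in 10 of 12 other genes of the class II pathway and in 10 of 17 other genes of the class I pathway. In B2m the match begins at -64 from the window's transcript start, but at 30, downstream, from the most upstream start in the RefSeq gene table. A longer form, CTGATTGG, which contains ATTGG and was added after the sequences had been read, was present in RT1-Da, RT1-Ba and RT1-Bb and in 3.5% of all windows. It was also in 4 of 12 other genes of the class II pathway and in 7 of 17 other genes of the class I pathway, RT1-A1 and RT1-A2 among them. An X box pattern, AGNNAC followed by any base and GATG, was found in RT1-Da and RT1-Bb and in 0.95% of all windows. It was followed by ATTGG after 23 bases in RT1-Da and after 22 bases in RT1-Bb. Of 12 other genes of the class II pathway with a window, the X box pattern was found in RT1-Db1, RT1-Db2 and RT1-DOb, and in none of 17 other genes of the class I pathway. The core of the interferon-stimulated response element, TTTC and TTTC with 2 bases of any kind between them, was found among the 5 genes in B2m alone (as GAAACTGAAA), and in 3.92% of all windows. Among the other class I genes 7 of 17 held it, including the peptide transporter genes Tap1 and Tap2, and among the other class II pathway genes 2 of 12 did, Ctss and Rfx5. TTCNNNGAA, the core of a STAT site, was in none of the 5 windows and in 8.87% of all windows. A match, or the lack of a match to the X box pattern in RT1-Ba and Cd74, describes the letters only.

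**Figure D1:**
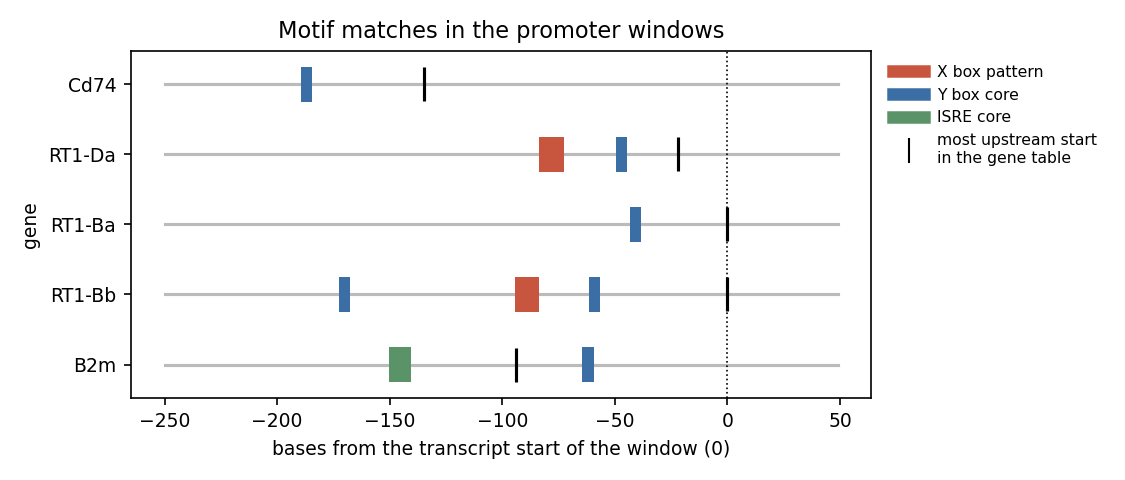
Motif matches along the promoter window of each gene, with the position in bases from the window's transcript start (0) on the x axis. Bars mark matches to the X box pattern (red), the Y box core (blue) and the interferon-stimulated response element core (green), and the black tick marks the most upstream start in the RefSeq gene table. A Y box core is drawn in all 5 windows, an X box pattern in RT1-Da and RT1-Bb, and the response element core in B2m.

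Libraries held 24961512 to 31189687 reads assigned to genes. The values below are normalized counts, that is, reads divided by a size factor of the library, and they compare 1 gene across libraries, not genes with each other, because transcript lengths of the build used are not at hand. The smallest value of a member is RT1-Bb in A-DON replicate 3, with 33 reads, a share of 0.000117% of the library (95% Wilson interval 8.31e-05% to 0.000164%, counting error only). A-DON replicate 2 stood apart from the other A-DON libraries, with the lowest sample weight of the 6 libraries over all tested genes (0.24 in limma). The fold changes are therefore given with it and without it. It was not the only such library, as DON replicate 1 had the next lowest weight (0.41). Chi-square per degree of freedom between read counts was 172 and 148 for A-DON replicate 2 against A-DON replicates 1 and 3. For DON replicate 1 against DON replicates 2 and 3 it was 168 and 172. The table pairs no names with its other IDs, so markers of microglia, macrophages, lymphocytes or neural cells were not looked up, and the tissue label was not checked against them. In bulk tissue, fewer cells of a type and less RNA per cell cannot be told apart. RT1 genes belong to a family with near-identical copies, and how reads matching several genes were counted is not given in the sources used here, so the RT1 values carry that uncertainty.

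Cd74, the invariant chain, was abundant in every DON cord, with 10095, 18747 and 34703 normalized counts in DON replicates 1, 2 and 3. A-DON replicates 1, 2 and 3 had 1188, 17900 and 886. A-DON replicates 1 and 3 lay below every DON library, by 8.5 times and 11.4 times against the lowest of them, while A-DON replicate 2 lay inside the DON range, so the groups overlapped. The means were 21182 ± 12483 in DON and 6658 ± 9737 in A-DON (SD, n = 3 each). On the log2 scale A-DON minus DON was -2.81 ± 1.20 (SE; 95% confidence interval -5.75 to 0.12), and the difference did not pass the threshold (limma adjusted p = 0.11).

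RT1-Da, the alpha chain of the D molecule, had 2910, 5182 and 11107 normalized counts in DON replicates 1, 2 and 3. Its values in A-DON replicates 1, 2 and 3 were 318.7, 5073 and 149.3. The same libraries were high and low as for Cd74, and A-DON replicate 2 was again inside the DON range. The log2 fold change was -3.14 ± 1.34 (SE; 95% confidence interval -6.41 to 0.12), short of the threshold (limma adjusted p = 0.11).

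The B molecule genes followed a different order at the top. RT1-Ba, the alpha chain, had 883.6, 1479 and 4307 normalized counts in DON replicates 1, 2 and 3 and 263.8, 5251 and 88.0 in A-DON replicates 1, 2 and 3. RT1-Bb, the beta chain, had 646.3, 1019 and 2103 in DON and 236.8, 3443 and 32.6 in A-DON, in the same order of replicates. For both chains A-DON replicate 2 held the highest value of all 6 libraries and A-DON replicate 3 the lowest. The level in A-DON replicate 2 was 2.36 times the DON mean for RT1-Ba and 2.74 times for RT1-Bb. The means of normalized counts were 2223 ± 1829 in DON and 1868 ± 2931 in A-DON for RT1-Ba (SD, n = 3 each). For RT1-Bb they were 1256 ± 756 in DON and 1237 ± 1913 in A-DON, nearly equal. The log2 fold changes, which compare means of log2 values, were -1.84 ± 1.53 (SE) for RT1-Ba and -1.89 ± 1.63 (SE) for RT1-Bb. Their 95% confidence intervals were -5.58 to 1.91 and -5.86 to 2.09. Neither passed the threshold (limma adjusted p = 0.37 and 0.39).

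B2m, the class I light chain, was the only member whose groups did not overlap. It had 50636, 51163 and 45513 normalized counts in DON replicates 1, 2 and 3, and 7426, 29079 and 7212 in A-DON replicates 1, 2 and 3. The 3 DON cords were close to each other, and A-DON replicate 2 lay between them and the other A-DON cords. B2m fell from 49104 ± 3121 in DON to 14573 ± 12564 in A-DON (SD, n = 3 each). This is -2.08 ± 0.55 (SE) on the log2 scale (95% confidence interval -3.43 to -0.73; limma adjusted p = 0.034). The call was lost when any single library other than A-DON replicate 2 was left out, with limma adjusted p of 0.078 to 0.12 and log2 fold changes of -2.13 to -1.74. The unadjusted limma p of B2m was 0.026 to 0.033 in those fits. Calls over all tested genes also fell in them, from 6930 with all 6 libraries to between 12 and 3930. Without A-DON replicate 2 the log2 fold change of B2m was -2.74 (limma adjusted p = 0.00060).

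**Figure D2:**
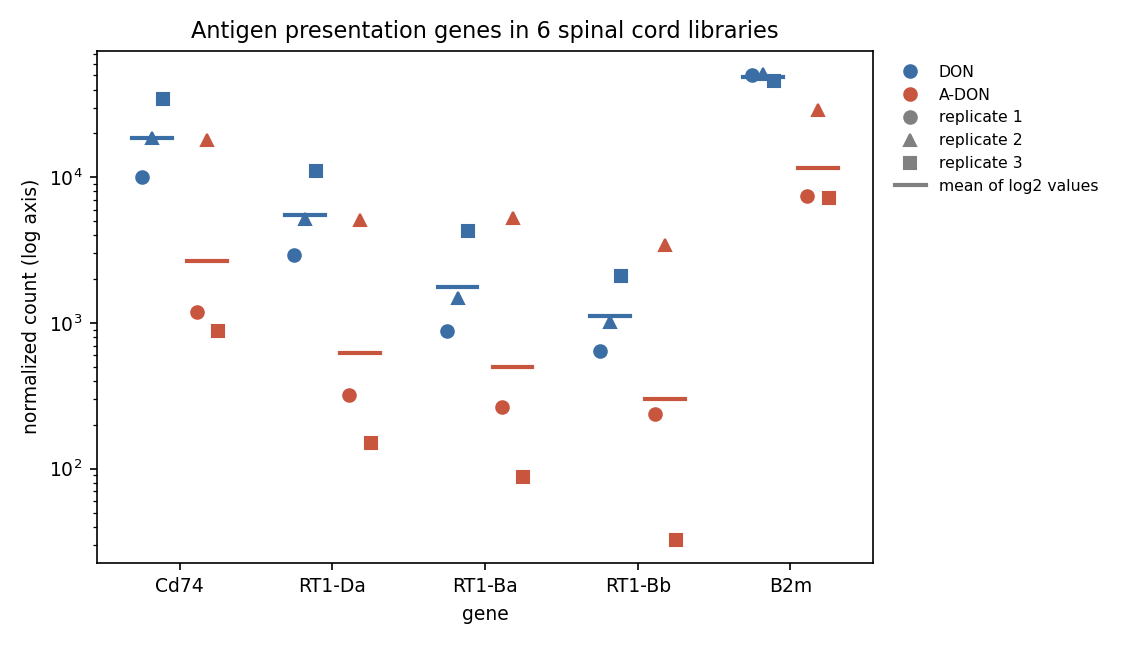
Normalized counts on a log axis for the 5 genes in each library, DON in blue and A-DON in red, with the replicate number given by the symbol and the mean of the log2 values by a bar. A-DON replicate 2 lies inside the DON range for Cd74 and RT1-Da, above it for RT1-Ba and RT1-Bb and below it for B2m, while A-DON replicates 1 and 3 lie below every DON library for all 5 genes.

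Read as a group, all 5 genes had a lower mean log2 value in A-DON. Their median log2 fold change was -2.08, against -0.02 over all 19515 tested genes, of which 51.1% had a negative value. On the scale of normalized counts the DON mean was only 1.19 times the A-DON mean for RT1-Ba and 1.02 times for RT1-Bb. The share of tested genes past the threshold was 35.5% in either direction and 16.6% for genes lower and 18.9% for genes higher in A-DON. Of the 5 members 1, B2m, passed it, as lower, and 0 passed as higher. The same 1 member had an unadjusted limma p under 0.05. The groups did not overlap in 55.9% of tested genes, with A-DON below DON in 27.9%, and among the 5 members in 1, B2m, with A-DON below. A log2 fold change as low as that of the member was found in 1.66% of tested genes for RT1-Da, 2.66% for Cd74, 7.37% for B2m, 9.24% for RT1-Bb and 9.68% for RT1-Ba. A count of 1 in 5 is near the background shares of 16.6% and 27.9% for that direction.

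Without A-DON replicate 2, all 5 members passed the threshold and were lower in A-DON, while 24.9% of all tested genes were called lower and 47.6% were called in either direction in that fit. Cd74 then had a log2 fold change of -4.19 ± 0.52 (SE; limma adjusted p = 0.0032), and RT1-Da had -4.65 ± 0.63 (SE; limma adjusted p = 0.0040). RT1-Ba and RT1-Bb reached -3.54 and -3.64, with standard errors of 0.80 and 0.94 (limma adjusted p = 0.018 and 0.027). With A-DON replicate 1 or 3 left out instead, 0 of the 5 passed. Of the 19515 tested genes, 35 passed without A-DON replicate 1 and 12 without A-DON replicate 3, in either direction. A count of 0 in 5 is thus near the share over all tested genes in these fits. The log2 fold change of RT1-Bb was -0.30 without A-DON replicate 3 (95% confidence interval -3.45 to 2.85). The difference for the class II pathway genes was thus past the threshold in the fit that had left out A-DON replicate 2, and in no other fit that left out a library.

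**Figure D3:**
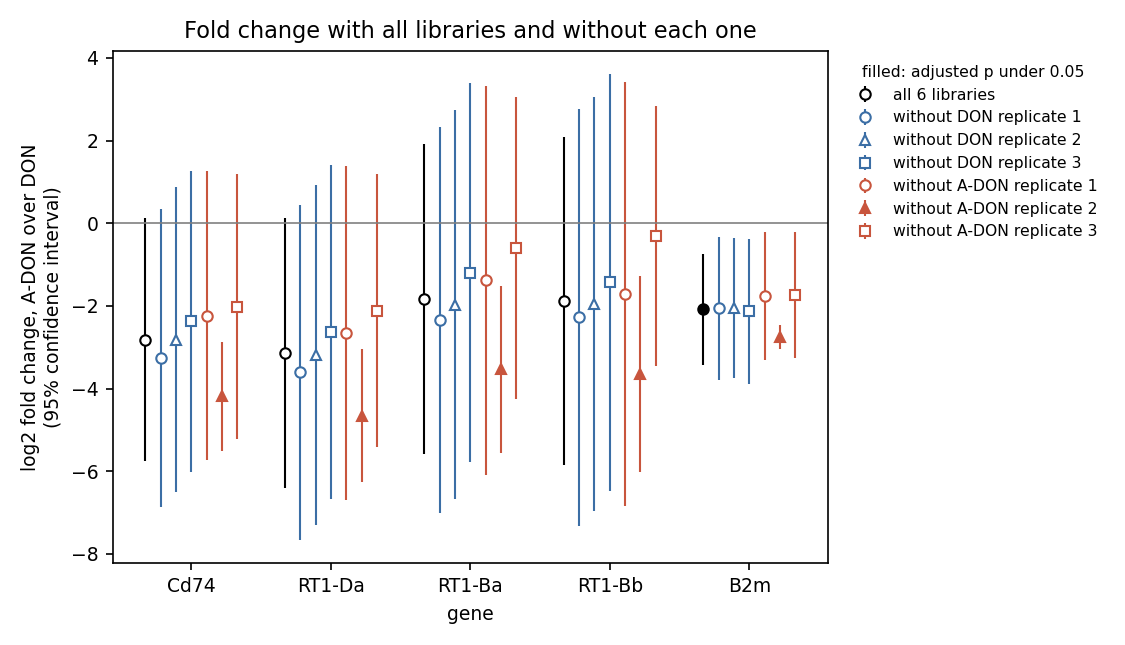
Log2 fold change of A-DON over DON with its 95% confidence interval for each gene, with all 6 libraries (black) and without each library in turn (colour for the group and symbol for the replicate left out). Filled symbols have an adjusted p under 0.05. All 5 genes are filled without A-DON replicate 2, and B2m is the only gene filled with all 6 libraries.

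The place of A-DON replicate 2 relative to DON differed between the members. A-DON replicates 1 and 3 lay below every DON library in 5 of 5 members and in 35.7% of tested genes. Among the 6967 genes with that pattern, A-DON replicate 2 reached the DON range or exceeded it in 22.0%, and it exceeded every DON library in 2.41%. Of the 5 members it reached or exceeded the range in 4 (all but B2m) and exceeded it in 2 (RT1-Ba and RT1-Bb). These shares were computed after the members' values had been seen and carry no test.

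The gap within A-DON was widest for the B molecule. A-DON replicate 2 held 20.2 times the level of replicate 3 for Cd74, 34.0 times for RT1-Da, 59.7 times for RT1-Ba and 106 times for RT1-Bb. For B2m the ratio was 4.03. A-DON replicates 1 and 3, which were both low, were near each other for B2m (a ratio of 1.03) and Cd74 (1.34), and further apart for RT1-Da (2.13), RT1-Ba (3.00) and RT1-Bb (7.26). On the log2 scale the SD over the 3 A-DON libraries was 2.39 for Cd74, 2.67 for RT1-Da, 3.05 for RT1-Ba, 3.35 for RT1-Bb and 1.15 for B2m. The median SD was 0.23 over the 14706 genes whose mean reached 50 normalized counts. An SD as large as that of RT1-Bb occurred in 0.245% of those genes and one as large as that of Cd74 in 1.22%.

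DON cords also differed among themselves in the class II pathway. DON replicate 3 held 3.44 times the level of replicate 1 for Cd74, 3.82 times for RT1-Da, 4.87 times for RT1-Ba and 3.25 times for RT1-Bb, with replicate 2 between them each time. That order of the DON libraries was present in 16.4% of all tested genes. B2m went the other way, with replicate 3 at 0.899 times replicate 1. The log2 SD over DON was 0.86 to 1.17 for the 4 class II pathway genes and 0.09 for B2m, against a median of 0.21. B2m was thus tighter in DON than most genes (82.7% of them had an SD as large or larger), while Cd74 and the RT1 genes were among the more variable 6.92%.

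Differences between members within a library do not depend on how libraries were scaled, and they show how far ratios between transcripts varied. The difference between the invariant chain and the D alpha chain varied little except in A-DON replicate 3. The log2 value of Cd74 minus that of RT1-Da was 1.79, 1.85 and 1.64 in DON replicates 1, 2 and 3 and 1.90, 1.82 and 2.56 in A-DON replicates 1, 2 and 3. These 5 libraries other than A-DON replicate 3 thus lay close together although Cd74 itself ran from 1188 to 34703 normalized counts in them. The chains of the B molecule differed by less between libraries than either chain did alone, with RT1-Bb minus RT1-Ba at -0.45, -0.54 and -1.03 in DON and -0.15, -0.61 and -1.40 in A-DON. Neither difference separated the groups (exact two-sided permutation p = 0.2 and 0.9, with 0.1 the smallest that 3 against 3 allows).

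The ratio of the D to the B alpha chain transcripts, a pair added after the values had been seen, did not overlap between the groups. RT1-Da minus RT1-Ba was 1.72, 1.81 and 1.37 in DON replicates 1, 2 and 3, and 0.27, -0.05 and 0.76 in A-DON replicates 1, 2 and 3. The lowest of all 6 libraries here was A-DON replicate 2, and the difference of the means was -1.31. On the linear scale the ratio of their normalized counts, which is compared between libraries only and is no ratio of transcript levels, ran from 2.58 to 3.50 in DON and from 0.966 to 1.70 in A-DON. RT1-Da minus RT1-Bb was 2.17, 2.34 and 2.40 in DON and 0.43, 0.56 and 2.16 in A-DON in the same order of replicates. DON replicate 1 and A-DON replicate 3 nearly met there, at 2.17 and 2.16. Both reached p = 0.1 by exact two-sided permutation, the lower limit of this design, and 0.5 after Benjamini-Hochberg adjustment over all 10 pairs. The other pairs across Cd74 and the B molecule overlapped between the groups. Cd74 minus RT1-Ba was 3.51, 3.66 and 3.01 in DON replicates 1, 2 and 3 and 2.17, 1.77 and 3.32 in A-DON, and Cd74 minus RT1-Bb was 3.96, 4.20 and 4.04 in DON and 2.32, 2.38 and 4.72 in A-DON (exact two-sided permutation p = 0.2 and 0.4). These 4 pairs were added after the values had been seen. How often pairs of other genes separate the groups was not computed. Among single tested genes the groups did not overlap in 55.9%, so a lack of overlap is common in these data. Without any single library the RT1-Da minus RT1-Ba difference lay between -1.52 and -1.12. Its sign could not change in these fits, because the groups do not overlap for this pair.

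Against B2m, the class II pathway genes showed no separation of the groups. Cd74 minus B2m was -2.33, -1.45 and -0.39 in DON replicates 1, 2 and 3 and -2.64, -0.70 and -3.02 in A-DON replicates 1, 2 and 3. RT1-Da minus B2m ran from -4.12 to -2.03 in DON and from -5.58 to -2.52 in A-DON. The group differences relative to B2m were -0.73 for Cd74 (-1.44 without A-DON replicate 2 and -0.23 without DON replicate 3), -1.06 for RT1-Da (-1.91 without A-DON replicate 2 and -0.38 without A-DON replicate 3), 0.24 for RT1-Ba and 0.20 for RT1-Bb, with exact two-sided permutation p of 0.5, 0.4, 0.9 and 1.0 (adjusted 1.0 over the 6 pairs fixed with the design). The sign for RT1-Ba and RT1-Bb turned negative in the absence of A-DON replicate 2 (-0.79 and -0.90) or DON replicate 1 (-0.28 and -0.22).

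**Figure D4:**
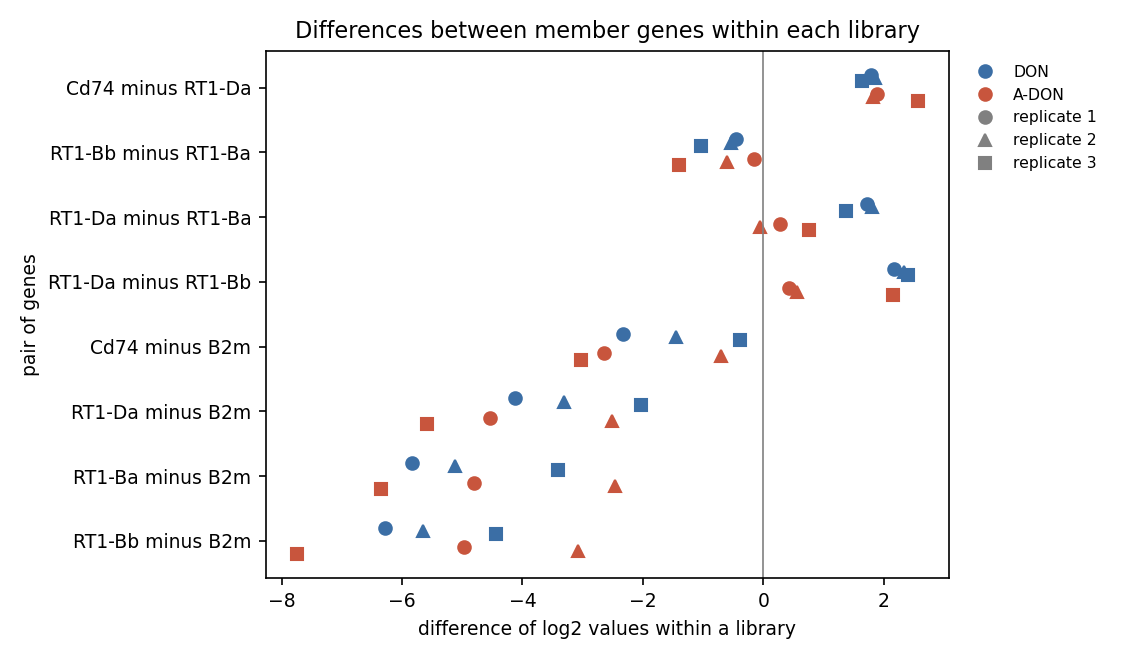
Difference between the log2 values of pairs of genes in each library, DON in blue and A-DON in red, with the replicate number given by the symbol. RT1-Da minus RT1-Ba lies at 1.37 to 1.81 in DON and at -0.05 to 0.76 in A-DON, whereas the differences from B2m overlap between the groups.

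The 5 members together took 0.219%, 0.267% and 0.332% of the reads of DON replicates 1, 2 and 3 and 0.0339%, 0.226% and 0.0299% of A-DON replicates 1, 2 and 3. A-DON replicate 2 was inside the DON range. The means were 0.273 ± 0.0565% in DON and 0.0965 ± 0.112% in A-DON (SD, n = 3 each; exact two-sided permutation p = 0.2). For Cd74 and the 3 RT1 genes alone the reads numbered 15249, 27718 and 51685 in DON and 2085, 29352 and 1169 in A-DON.

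Other genes with a like profile were ranked by the distance between centred log2 values over the 6 libraries, measured from the mean profile of the 5 members, among the 14701 other genes whose mean reached 50 normalized counts. The nearest were ENSRNOG00000000239 at a distance of 0.81 and ENSRNOG00000033215 at 0.83, for which no symbol is at hand. The median gene stood at 4.75, and the members themselves at 0.82 (Cd74), 1.05 (RT1-Da), 1.16 (RT1-Ba), 1.56 (RT1-Bb) and 2.33 (B2m). Each member is part of the mean profile, which shortens its distance, so member distances cannot be set against those of other genes. ENSRNOG00000033215 had 1647, 2942 and 6247 normalized counts in DON replicates 1, 2 and 3 and 189.7, 4219 and 129.5 in A-DON replicates 1, 2 and 3, and like Cd74 it did not pass the threshold (limma adjusted p = 0.16).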

How the data were processed

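Libraries came from a stranded mRNA kit and an Illumina NovaSeq run, per the labels' protocols. STAR 2.5.3a, StringTie 1.3.1c, FastQC 0.11.2 and rn6 are listed, without roles, in the submitters' notes on processing. How reads were counted, with which strand setting and annotation, is not given in the sources used here. Log2 values were deposited by the authors. Undoing the log2 and subtracting 1 gave whole multiples of a step for 100% of values (tolerance 0.05 reads), so the values are log2(reads / size factor + 1), with size factors of 0.927 to 1.05.

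Groups were compared with limma 3.58.1 (R 4.3.3; trend, robust moderation, group alone) on genes that reached a normalized count of 1 in 3 or more libraries, with Benjamini-Hochberg adjustment over all of them and a threshold of 0.05. The test was also run on simulated counts that had the same spread setting for all genes and no library set apart. The members differ from that setting, so the run does not bear on their calls. The pseudocount of 1 makes fold changes of low genes smaller. Pairs of members were compared by exact permutation (scipy 1.17.1). Gene symbols came with the definition of the set. The members, lists and tests were chosen with earlier results of these data known. All 5 members were named, and the 2 nearest other profiles were named by ID. Pathway and cell type lists could not be matched to Ensembl IDs, and were used for promoter windows alone. P-values measure the spread between rats, each a separate animal per the series' design. Numbers were not used as pairs in the main fit, because the rats are separate animals. Deviations from the group means in rats sharing a number had r = -0.17, -0.24 and -0.08 over genes. Deviations within a group of 3 offset each other, so these values cannot exclude a batch shared by number. Alternatives were other scalings, filters, moderation, pseudocount, voom, sample weights, a replicate block and leaving out each library.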

Additional observations from a re-analysis of the deposited data

How the results depend on the processing

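With 3 rats per group, and with A-DON replicate 2 and DON replicate 1 each apart from the other libraries of their group, single libraries set most calls. Leaving out each library in turn gave 12 to 9286 genes past the threshold and 0 to 5 members. The log2 fold changes ranged from -4.19 to -2.02 (Cd74), -4.65 to -2.11 (RT1-Da), -3.54 to -0.59 (RT1-Ba), -3.64 to -0.30 (RT1-Bb) and -2.74 to -1.74 (B2m). Relative to B2m the group difference ranged from -0.79 to 1.14 for RT1-Ba and from -0.90 to 1.44 for RT1-Bb, negative without A-DON replicate 2 or DON replicate 1, and RT1-Bb minus RT1-Ba, -0.05 with all libraries, ranged from -0.33 to 0.29. Cd74 minus B2m ranged from -1.44 to -0.23, RT1-Da minus B2m from -1.91 to -0.38 and Cd74 minus RT1-Da from 0.09 to 0.46. The share of reads held by the 5 members differed by -0.24 to -0.14 percentage points.

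Sample weights in limma were 0.24 for A-DON replicate 2, 6.99 for A-DON replicate 3 and 0.41 to 1.55 for the other libraries. The A-DON side of the weighted fit thus rested mostly on replicate 3, which had the lowest value of every member. The weighted fit gave 12414 genes and 5 members past the threshold, with log2 fold changes of -4.58 (Cd74), -5.30 (RT1-Da), -4.42 (RT1-Ba) and -4.84 (RT1-Bb). With the replicate number as a block (limma), 0 genes and 0 members passed, while 7601 genes and 1 member had an unadjusted p under 0.05. B2m kept -2.08 with an adjusted p of 0.072 in that fit, which has fewer residual degrees of freedom. Under the other 7 settings 1 member passed (B2m), and 5879 to 7457 genes. Total-count scaling moved the called genes to 4360 higher and 2422 lower, from 3698 and 3232. Over all 15 alternatives adjusted p ran from 0.00056 to 0.12 for B2m, 0.0013 to 0.29 for Cd74, 0.0016 to 0.28 for RT1-Da, 0.0071 to 0.78 for RT1-Ba and 0.011 to 0.87 for RT1-Bb. Count tests on the recovered reads other than voom were not run, since the deposited unit is a log2 value.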
